A study of Homo sapiens with 38 samples.

Results

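siVPS4A#1 is a small interfering RNA duplex directed against VPS4A, and the cells that received it were compared here with cells that received the non-targeting duplex siCTRL#1. The comparison used 9 of the 38 libraries of the series, 4 of siVPS4A#1 (replicates 1, 3, 4 and 5) and 5 of siCTRL#1 (replicates 1 to 5), and covered all 12627 listed genes in both directions. Replicate 2 of siVPS4A#1 was left out because the library was shallow and unlike the rest of its group. All libraries came from HCT116, a human colorectal carcinoma cell line. Cells were transfected with Lipofectamine RNAiMAX and collected after 72 h, so every group except the untransfected one (NT) carried the transfection reagent and a duplex. The siVPS4A#1 cells received 30 nM of that duplex together with 30 nM of siCTRL#1, and the controls received 60 nM of siCTRL#1, so both groups had the same total dose. The other groups named here were siVPS4A#2 (a second duplex against VPS4A, 30 nM with 30 nM of siCTRL#1), siVPS4B#1 and siVPS4B#2 (30 nM of a duplex against the paralog VPS4B with 30 nM of siCTRL#1), siVPS4A+B#1 and siVPS4A+B#2 (30 nM each of a VPS4A and a VPS4B duplex, with no siCTRL#1) and siCTRL#2, a further control. The labels do not give the dose of siCTRL#2. The study based its downstream comparisons on untransfected cells and siCTRL#1, which behaved alike in its exploratory analysis, and not on siCTRL#2. A knockdown by 1 duplex limits each group as a model of VPS4A loss, since a duplex can also act on other transcripts.

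VPS4A and VPS4B are closely related AAA ATPases of the ESCRT machinery, which pinches off and seals membranes in endosomal sorting, virus budding, repair of the plasma membrane and nuclear envelope, and the last step of cell division. They pull apart ESCRT-III filaments so that the subunits can be used again, and VTA1 is a cofactor that stimulates them.

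Expression was measured with a targeted amplicon panel and is given as scaled reads per 1000000 (rpm). The fitted libraries held 7453670 to 8626787 reads for siVPS4A#1 and 5801458 to 10029811 for siCTRL#1, against 669257 in the left-out library, where 3 reads, the lowest count taken as detected, equal 4.48 rpm. The left-out library correlated at 0.275 with the mean of the fitted siVPS4A#1 libraries over 9555 genes (differences from siCTRL#1, a description). Each fitted library correlated at 0.827 to 0.904 with the mean of the other fitted ones. With the mean of siVPS4A+B#1 the left-out library correlated at 0.755 and the fitted ones at 0.334 to 0.406. Correlations with siVPS4A+B#2 were not computed. The VPS4B level of the left-out library was 1.62 rpm, resting on 1 read. Whether it holds cells of siVPS4A#1 alone is not settled by the labels, and fits that include it are given beside the results only because it carries that label, not as a further replicate. Epithelial markers (EPCAM, KRT8, KRT18, KRT19 and CDH1, 5 of 5 listed) summed to 4780 to 6380 rpm with siVPS4A#1 and 4340 to 6990 rpm with siCTRL#1, and 0 of them were called. Of the markers of other cells, 1 of 8 leukocyte genes was listed (LYZ, at most 0.855 rpm in any of the 9 libraries), 2 of 4 endothelial genes (PECAM1 and KDR, summing to at most 0.869 rpm) and 2 of 8 fibroblast genes (COL1A1 and PDGFRB). The fibroblast pair summed to 34.2 to 61.2 rpm with siVPS4A#1 and 15.9 to 32.1 rpm with siCTRL#1, which came from COL1A1 (log2 fold change 0.84, SE 0.21, adjusted p = 0.00149, limma), and its part in other results was not tested.

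The targeted transcript was strongly reduced. VPS4A (NM_013245, GRCh37 chromosome 16, 69345253 to 69360842, plus strand) stood at 3.52, 1.63, 1.88 and 1.71 rpm in replicates 1, 3, 4 and 5 of siVPS4A#1 and at 198, 173, 180, 192 and 207 rpm in the 5 siCTRL#1 libraries. No siVPS4A#1 library came near the control range, and replicate 1 had the highest residual level. The mean was 2.18 ± 0.895 rpm (SD, n = 4) against 190 ± 14 rpm (SD, n = 5), and VPS4A fell by 5.92 on the log2(rpm + 1) scale (SE 0.22, adjusted p = 2e-23, limma). Within replicate numbers the difference on that scale was -5.46 to -6.26, lower in 4 of 4 pairs, and adding 1 rpm makes it smaller than the change of the levels themselves. An exact 2-sided permutation test over the 9 libraries gave p = 0.00794, the smallest that its 126 splits allow. The other duplex left more transcript, 5.89, 6.2, 8.93 and 10.5 rpm in siVPS4A#2 replicates 1 to 4, all above every siVPS4A#1 library, and the direct difference between the duplexes was -1.45 (SE 0.24, adjusted p = 5.37e-06). In the left-out library VPS4A was at 11.3 rpm, from 7 reads.

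VPS4B (NM_004869, GRCh37 chromosome 18, 61056423 to 61089716, minus strand) was not called. Its levels were 24.4, 21.4, 32.1 and 26.4 rpm with siVPS4A#1 and 23.9, 20.2, 16.4, 18.2 and 24.6 rpm with siCTRL#1. The ranges overlapped, with replicate 4 of siVPS4A#1 the highest. The log2 fold change was 0.27 (SE 0.19, adjusted p = 0.287), and the exact 2-sided permutation test gave p = 0.0952. Its sign was negative (-0.34) against siCTRL#2 and also when the left-out library was included.

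**Figure D1:**
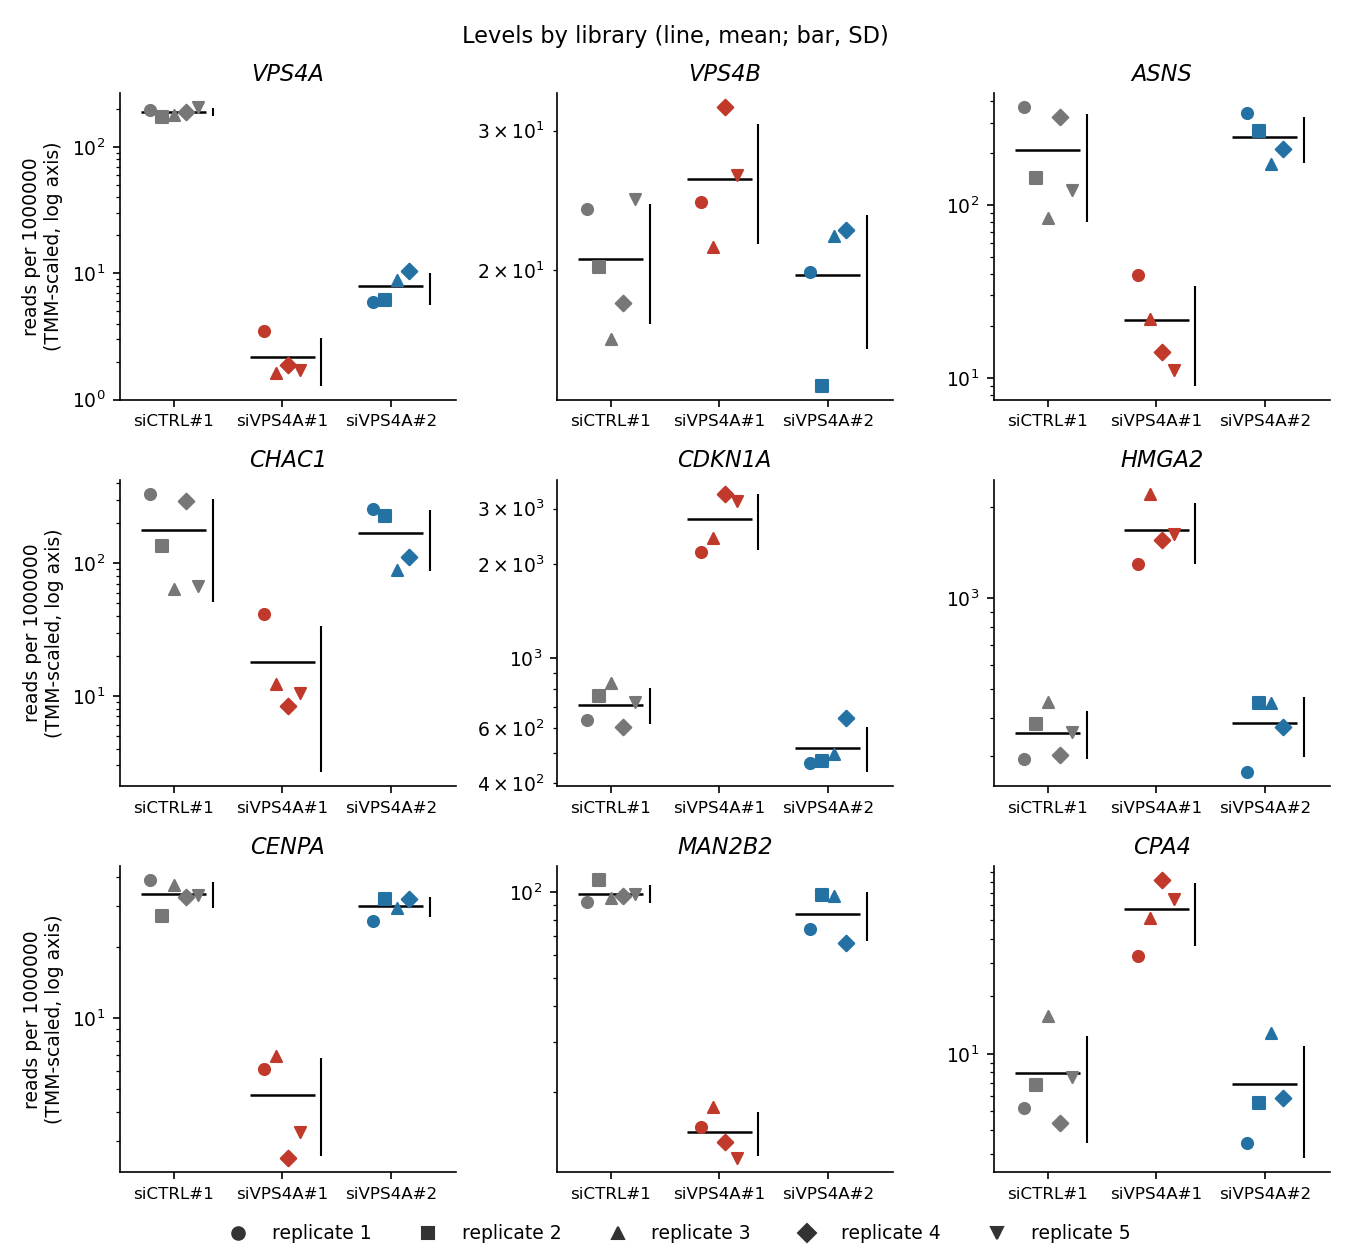
TMM-scaled reads per 1000000 (vertical log axis, scaled separately in each panel) of 9 genes in each library of siCTRL#1, siVPS4A#1 and siVPS4A#2, with marker shapes for replicate numbers, horizontal lines for means and vertical bars for SD. VPS4A lies at 1.63 to 3.52 with siVPS4A#1, below siVPS4A#2 and far below siCTRL#1, while in the panels of ASNS, CHAC1, CENPA, MAN2B2, CDKN1A, HMGA2 and CPA4 siVPS4A#1 does not overlap either of the other groups.

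Across the table, 1208 genes (9.57% of 12627) were higher and 1574 (12.5%) were lower with siVPS4A#1 than with siCTRL#1; a gene was called when it changed 1.5-fold or more with an adjusted p below 0.05. The median log2 fold change was 0.77 over the genes called higher, -0.92 over those called lower and 0.01 over all genes. More falls than rises were large: 671 genes were at least 2-fold lower and 284 at least 2-fold higher, and at 4-fold the counts were 79 and 12. The libraries of the groups did not overlap for 961 of the genes called higher and 1351 of those called lower, where 12.8% of all genes had every siVPS4A#1 library above siCTRL#1 and 14.9% had every one below. All 4 replicate pairs moved the same way for 1144 and 1518 of the called genes. The calls were made from these same libraries, so this count is not separate support, and its share over all genes was not computed. Calls came from every abundance range: 10.1% of the 6460 genes at 10 to 100 rpm were higher and 13.5% lower, and of the 110 genes at 1000 rpm or more the shares were 5.45% and 12.7%. Among the 1332 genes under 1 rpm the shares were 3.15% and 2.78%, on a scale where adding 1 rpm compresses small values.

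Genes of mitosis fell together. Of 46 listed genes of mitosis and the G2/M transition, 45 were lower (97.8%, against 12.5% of all genes) and 0 higher. The median log2 fold change was -1.96 (0.01 over all genes). Every siVPS4A#1 library lay below every siCTRL#1 library for 14.9% of all genes and for 45 of these. These genes encode the kinases, cyclins, centromere and spindle proteins that cells make as they enter division, so their level in a culture follows how many cells are dividing; fewer cells in that phase and less RNA per cell cannot be told apart in bulk RNA. CENPA, the histone H3 variant that marks centromeres, was at 6.08, 6.9, 2.54 and 3.3 rpm with siVPS4A#1 and 38.6, 27.1, 36.7, 32.6 and 33.5 rpm with siCTRL#1. All 4 knockdown libraries were below the lowest control, replicates 4 and 5 lowest. CENPA fell by 2.68 on the log2 scale (SE 0.17, adjusted p = 2.05e-15). CDK1, the kinase that drives entry into mitosis, averaged 33 ± 14.2 rpm against 141 ± 11.4 rpm and fell by 2.14 (SE 0.18, adjusted p = 2.09e-12). PLK1, a kinase of spindle assembly and cytokinesis, fell by 2.33 (SE 0.22), and MKI67, the gene of the proliferation marker Ki-67, fell by 2.37 (SE 0.17). CDKN3, a phosphatase of cyclin-dependent kinases, fell by 2.45 (SE 0.19), from levels of 113, 119, 148, 104 and 138 rpm in siCTRL#1 to 29.9, 31.6, 14 and 16.6 rpm. The member not called was CDC25B, at -0.32 (adjusted p = 0.0396). ARHGEF39, among the 12 largest falls, was at 3.2, 3.13, 2.88 and 2.2 rpm against 21.6, 22.5, 27.9, 23 and 28.6 rpm. CEP55, which recruits ESCRT proteins to the midbody between dividing cells, fell by 2.54 (SE 0.14), to 12.2, 9.03, 8.96 and 7.09 rpm from 53, 47.3, 65.9, 59.4 and 61.4 rpm. The mitotic list medians by library were -1.41, -1.94, -2.06 and -2.31 in siVPS4A#1 replicates 1, 3, 4 and 5, outside the -0.1 to 0.17 of the siCTRL#1 libraries. The left-out library was at -0.92, and with it in the fit 45 members were lower.

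The promoters of 3 of these genes are shown for the cell cycle genes homology region (CHR). The DREAM and B-MYB complexes are known to act through it on late cell cycle genes. Each sequence covers 300 bases, 250 before and 50 after the start, from RefSeq on GRCh38.p14, on the strand of the gene: CDKN3 at chr14:54396757-54397056 (plus), DLGAP5, a spindle protein gene, at chr14:55191536-55191835 (minus), and CENPA at chr2:26785806-26786105 (plus). Capitals mark TTTGAA or its reverse complement TTCAAA.
CDKN3: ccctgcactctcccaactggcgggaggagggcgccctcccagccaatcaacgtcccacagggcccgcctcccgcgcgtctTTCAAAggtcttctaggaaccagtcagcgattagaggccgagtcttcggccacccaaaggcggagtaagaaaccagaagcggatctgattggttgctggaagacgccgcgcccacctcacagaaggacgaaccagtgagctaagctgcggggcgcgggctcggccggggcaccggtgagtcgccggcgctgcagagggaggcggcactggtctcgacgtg
DLGAP5: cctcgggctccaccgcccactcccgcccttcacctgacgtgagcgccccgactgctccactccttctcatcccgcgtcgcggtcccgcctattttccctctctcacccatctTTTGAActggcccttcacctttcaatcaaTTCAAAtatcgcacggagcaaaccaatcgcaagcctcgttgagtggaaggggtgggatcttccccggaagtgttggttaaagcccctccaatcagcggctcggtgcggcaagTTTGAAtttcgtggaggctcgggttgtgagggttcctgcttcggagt
CENPA: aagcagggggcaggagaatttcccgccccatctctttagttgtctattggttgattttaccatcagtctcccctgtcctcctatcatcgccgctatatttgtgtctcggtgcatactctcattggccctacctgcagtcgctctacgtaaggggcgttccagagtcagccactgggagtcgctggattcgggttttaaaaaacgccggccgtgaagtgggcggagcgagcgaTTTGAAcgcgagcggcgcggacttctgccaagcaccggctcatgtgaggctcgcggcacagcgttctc
TTTGAA, searched on both strands, occurred in 27 of the 39 promoters available for the mitotic list (69.2%), with 3 matches in DLGAP5. It occurred in 9.53% of all 10206 promoters of listed genes, in 15.7% of the 1277 of genes called lower, in 7.49% of the 935 of genes called higher and in 8.79% of those not called. CCAAT, which does not overlap TTTGAA in letters, was in 28 of the 39 and in 37% of all promoters. A match is a description of these letters and not a binding site. The share of a list with a motif, here and below, is fixed by its members and does not depend on the knockdown. The genes called lower include members of these lists, so their share is not separate. Which factor acted was not tested.

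Genes of DNA replication fell as well. Of 44 listed genes, 40 were lower (90.9%, against 12.5% of all genes) and 1 higher, with a median log2 fold change of -1.34. For 39 of them every siVPS4A#1 library lay below all controls, as for 14.9% of all genes. RRM2, the ribonucleotide reductase subunit that supplies deoxynucleotides, was at 67.3, 48.3, 51.1 and 34.5 rpm with siVPS4A#1 and 229, 218, 310, 228 and 281 rpm with siCTRL#1. Every siVPS4A#1 library was below every control by a wide gap. RRM2 fell by 2.35 (SE 0.17, adjusted p = 4.94e-14). CDC6, which loads the replicative helicase onto origins, fell by 2.04 (SE 0.15), from 80.6, 67.6, 99.2, 90.9 and 67.3 rpm to 23.6, 28.5, 14.8 and 12.6 rpm. MCM2 and MCM5, subunits of that helicase, fell by 1.49 and 1.91, GINS4, of its activating complex, by 2.06, and PCNA, the sliding clamp, by 1.1. The exception was CCNE1, cyclin E1, which drives the entry into S phase and rose: 28.9 ± 6.94 rpm against 11.7 ± 2.59 rpm (log2 fold change 1.23, SE 0.16, adjusted p = 1.03e-07). LIG1 (-0.18), RPA1 (-0.07) and E2F2 (-0.58) were not called. With the left-out library the list gave 40 lower and 1 higher.

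E2F factors act on promoters of S phase genes, and the CDC6 promoter is shown as the member with such letters at its start (chr17:40287629-40287928, plus strand, RefSeq, GRCh38.p14), with TTTGGCGC in capitals.
CDC6: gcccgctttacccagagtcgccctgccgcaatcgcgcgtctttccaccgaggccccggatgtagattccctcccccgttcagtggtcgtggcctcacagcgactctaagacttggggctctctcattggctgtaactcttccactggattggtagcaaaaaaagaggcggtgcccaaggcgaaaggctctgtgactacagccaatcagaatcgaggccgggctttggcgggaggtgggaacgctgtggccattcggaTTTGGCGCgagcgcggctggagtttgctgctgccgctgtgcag
TTTCCCGC or TTTGGCGC, on either strand, occurred in 17 of 37 replication promoters (45.9%), 2 of 39 mitotic promoters and 3.78% of all promoters, and in 7.13% of those of genes called lower. TTTGAA was in 1 of the 37.

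Replication-dependent histone genes have transcripts that are made in S phase to package new DNA. They were lower for 33 of 39 listed members (84.6%, against 12.5% of all genes) and higher for 2, with a median of -1.61. Of the 61 genes sought, 39 were listed. All classes were affected: 2 of 2 linker H1 genes fell, 11 of 11 H2A, 9 of 11 H2B, 5 of 8 H3 and 6 of 7 H4. H4C4 was at 89.3, 81.1, 43.7 and 39.3 rpm with siVPS4A#1 against 337, 246, 416, 336 and 275 rpm with siCTRL#1. The groups did not overlap, and replicates 4 and 5 were lowest. H4C4 fell by 2.43 (SE 0.23, adjusted p = 3.24e-11). H2AC11 fell by 2.24 (SE 0.18) and H2AC14 by 2.19 (SE 0.19). H3C4 (log2 fold change 1.00, SE 0.19) and H2BC12 (0.61, SE 0.16) rose. These genes are near-identical copies, so reads may be split among them and single members are uncertain. Histones were lower against siCTRL#2 as well, but for 24 members and with a median of -0.8. CCAAT was in 31 of 35 histone promoters (88.6%), and neither E2F sequence was in any of them.

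Genes that respond to ATF4 fell too. ATF4 is a transcription factor whose protein accumulates when amino acids run short or the endoplasmic reticulum is stressed, and it raises genes of amino acid synthesis, transport and tRNA charging. Of 36 listed targets 27 were lower (75%, against 12.5% of all genes) and 0 higher, with a median log2 fold change of -1.24. They made up 7 of the 12 largest falls. PCK2, the mitochondrial phosphoenolpyruvate carboxykinase, was at 18.1, 9.15, 7.74 and 5.5 rpm with siVPS4A#1 and at 180, 82.8, 57.1, 196 and 70.6 rpm with siCTRL#1. No library of the groups overlapped, although the controls spread widely, with replicates 1 and 4 well above the others. PCK2 fell by 3.34 (SE 0.24, adjusted p = 2.96e-14), the largest called fall after VPS4A among genes that met the naming rule. ASNS, asparagine synthetase, was at 39.2, 21.9, 14.2 and 11.1 rpm against 368, 144, 84.3, 322 and 122 rpm and fell by 3.17 (SE 0.25, adjusted p = 2.54e-13), with pair differences from -1.9 to -4.41. CHAC1, which degrades glutathione, was at 41.2, 12.3, 8.41 and 10.6 rpm against 334, 134, 64.2, 296 and 67 rpm. In siVPS4A#1 replicate 1 was the highest, yet below the lowest control. CHAC1 fell by 3.17 (SE 0.34, adjusted p = 5.21e-10).

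By role, 10 of 13 ATF4 targets of amino acid synthesis were lower, 6 of 8 of transport and 11 of 15 of transcription and stress. In synthesis, PHGDH, the entry enzyme of the serine pathway, fell by 3.08 (SE 0.23), from 582, 358, 220, 597 and 273 rpm to 51.1, 47.3, 35.1 and 40.3 rpm. PSAT1, the next enzyme of that pathway, fell by 1.87 and SHMT2, which turns serine into glycine and 1-carbon units in mitochondria, by 0.65. Among the carriers, SLC1A4 (neutral amino acids) fell by 2.67 (SE 0.22), SLC7A11 (the cystine carrier) by 2.28 (SE 0.23) and SLC7A5 (large neutral amino acids) by 1.96 (SE 0.19). Among the regulators, TRIB3, a pseudokinase, fell by 3.02 (SE 0.27), and NUPR1, a small stress-response regulator, by 2.71 (SE 0.32), from 31, 8.9, 3.05, 24.9 and 5.96 rpm to 1.81, 0.627, 0.221 and 1.1 rpm, where the lowest value rests on 2 reads, under the floor of 3. The ATF4 transcript itself averaged 297 ± 75 rpm against 786 ± 341 rpm and fell by 1.33 (SE 0.19, adjusted p = 2.72e-07). DDIT3, another regulator of the list, was near the detection limit in both groups. The list medians were -1.03 to -1.43 in the 4 siVPS4A#1 libraries, and 0.48 and 0.54 in siCTRL#1 replicates 1 and 4 against -0.09 to -0.39 in the other controls. Leaving out any 1 library gave 25 to 27 members lower, with 1 member higher without siVPS4A#1 replicate 1, the left-out library stood at -0.42, and with it 26 were lower. Against siCTRL#2 as control 20 were lower and 2 higher.

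The cytosolic aminoacyl-tRNA synthetases charge tRNAs with amino acids. Of 21 members 9 were lower (42.9%, against 12.5% of all genes) and 0 higher (median -0.53). GARS1 was at 88.4, 36.4, 94.1 and 79.2 rpm against 302, 257, 188, 278 and 219 rpm and fell by 1.82 (SE 0.17). Replicate 3 was the lowest of siVPS4A#1, and no library overlapped. AARS1 fell by 1.75 (SE 0.15) and YARS1 by 1.29 (SE 0.18). IARS1 (-0.54) and EPRS1 (-0.33) were not called.

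The ASNS promoter (chr7:97872359-97872658, minus strand) and the CHAC1 promoter (chr15:40953221-40953520, plus strand; both RefSeq, GRCh38.p14) are shown because they hold the composite element that ATF4 is known to bind with C/EBP partners. Capitals mark TGATGNAA (N is any base) or its reverse complement.
ASNS: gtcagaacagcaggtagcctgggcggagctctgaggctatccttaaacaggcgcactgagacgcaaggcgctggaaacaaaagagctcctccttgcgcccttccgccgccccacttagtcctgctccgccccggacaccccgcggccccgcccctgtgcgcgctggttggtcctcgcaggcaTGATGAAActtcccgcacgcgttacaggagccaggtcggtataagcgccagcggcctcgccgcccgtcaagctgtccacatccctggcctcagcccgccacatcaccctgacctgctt
CHAC1: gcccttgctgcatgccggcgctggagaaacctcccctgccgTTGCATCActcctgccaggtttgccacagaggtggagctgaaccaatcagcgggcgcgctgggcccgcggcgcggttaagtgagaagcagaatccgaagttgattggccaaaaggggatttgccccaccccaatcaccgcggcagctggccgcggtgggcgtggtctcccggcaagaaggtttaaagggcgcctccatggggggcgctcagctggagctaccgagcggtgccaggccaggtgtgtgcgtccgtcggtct
TGATGNAA on either strand was in 7 of 29 promoters of ATF4 targets (24.1%: ASNS, GOT1, SLC3A2, SLC7A1, ATF3, CHAC1 and FGF21) and in 6 of 16 of the synthetases (37.5%). It was in 1.61% of all promoters and 2.82% of those of genes called lower. The letters share no full match with the other motifs searched, and a promoter without them says nothing of ATF4.

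Targets of p53 were among the rises. Of 37 listed, 22 were higher and 0 lower, with a median log2 fold change of 0.85, against 9.57% of all genes higher. These genes act in cell cycle arrest, repair and cell death after DNA damage and other stress. CDKN1A, which encodes the cyclin-dependent kinase inhibitor p21, was at 2190, 2420, 3340 and 3180 rpm with siVPS4A#1 and 636, 760, 838, 604 and 724 rpm with siCTRL#1. The lowest knockdown library exceeded the highest control more than any control differed from another. CDKN1A rose by 1.95 (SE 0.14, adjusted p = 6.25e-14). By role, 6 of 9 genes of cell cycle arrest and feedback, 6 of 11 of cell death and 10 of 17 of repair and metabolism were higher. MDM2, a ubiquitin ligase of the feedback part, averaged 307 ± 37.3 rpm against 127 ± 25.9 rpm (1.27, SE 0.15). TP53I3, an oxidoreductase, was at 23.9, 26.6, 30.1 and 28.1 rpm against 6.23, 5.05, 7.11, 5.79 and 4.82 rpm (2.05, SE 0.19, adjusted p = 1.13e-11). SERPINB5, a serpin, was at 96.4, 108, 134 and 101 rpm against 22.6, 28, 24.7, 25.2 and 29.7 rpm (1.99, SE 0.14). SESN1 (1.69, SE 0.14), a stress-induced inhibitor of mTORC1 signalling, and ZMAT3 (1.6, SE 0.15), an RNA-binding protein, rose too. ABCA12, a lipid transporter, rose from 1.18, 1.08, 0.169, 2.03 and 1.23 rpm to 5.44, 8.65, 9.07 and 5.13 rpm (1.95, SE 0.23). GDF15 (0.04, adjusted p = 0.888) and GADD45A (-0.54, adjusted p = 0.0355) were not called. The left-out library had a list median of 0.15, where the fitted ones had 0.61 to 0.95; with it in the fit 22 members were higher and 2 lower.

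The BCL2 family decides on mitochondrial cell death. Of its 15 listed genes 6 were higher (40%) and 1 lower (6.67%), with a median of 0.48. Over all genes the shares were 9.57% and 12.5%. The effectors BAK1 (1.31, SE 0.13) and BAX (0.87, SE 0.16) rose, as did the BH3-only members BIK (1.30, SE 0.17), BBC3 (1.15, SE 0.2), which encodes PUMA, and BMF (1.06). BAK1 was at 85.4, 107, 92 and 96.3 rpm against 41.8, 30.7, 48.1, 36.3 and 32.4 rpm, with no overlap. The guards against death went both ways: MCL1 rose (0.84, SE 0.14), BCL2 fell (-0.62, SE 0.22, adjusted p = 0.0215, overlapping groups), and BCL2L1 was at -0.33 and not called. BAX and BBC3 also belong to the p53 list.

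The 12 largest rises, from 2.01 to 2.72 on the log2 scale, covered several roles. HMGA2, an architectural chromatin protein of embryonic and tumour cells, was at 1300, 2210, 1560 and 1630 rpm with siVPS4A#1 and 293, 384, 454, 302 and 361 rpm with siCTRL#1. Each knockdown library was far above the control range, replicate 3 highest. HMGA2 rose by 2.22 (SE 0.15, adjusted p = 3.18e-15), by 2.14 to 2.37 within pairs. CPA4, a carboxypeptidase, had the largest rise, 2.72 (SE 0.25, adjusted p = 1.07e-11), from 5.22, 6.86, 15.7, 4.34 and 7.57 rpm to 32.4, 51.8, 81.3 and 65 rpm. Against siCTRL#2 it was at 0.01 (adjusted p = 0.978), so its call depends on which control duplex is used. The same was so of VGF, a secreted neuropeptide precursor, which rose by 2.22 (SE 0.25) against siCTRL#1 and was at 0.22 (adjusted p = 0.534, limma) against siCTRL#2. CPA4 and VGF kept their calls against untransfected cells. KRTAP3-1, a keratin-associated protein, was at 7.14, 5.77, 5.75 and 10 rpm against 0.168, 0.241, 0.847, 0.29 and 0.189 rpm, the control values lying under or near the detection limit. PROM2 (2.29, SE 0.25), a membrane protein of protrusions, CEACAM1 (2.12, SE 0.18), an adhesion molecule, GNG13 (2.01, SE 0.18), a G protein subunit, and TMEM198 (2.02, SE 0.22) were also among them, as were ANK1, TP53I3 and SPARC. ANK1, an ankyrin of the membrane skeleton, was at 10.6, 8.02, 9.4 and 15.5 rpm against 2.02, 1.56, 1.52, 1.59 and 1.7 rpm, a tight control group. SPARC, a matrix glycoprotein, rose from 43.9, 37.5, 26.9, 44.5 and 39.6 rpm to 209, 141, 95.3 and 201 rpm (2.05, SE 0.32, adjusted p = 1.44e-06), with replicate 4 the lowest of the knockdown and still above every control. With the left-out library included SPARC was at 1.13 and not called (adjusted p = 0.0948).

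MAN2B2 and CYSTM1 were single falls outside these lists. MAN2B2, a lysosomal alpha-mannosidase, was at 15.1, 17.7, 13.4 and 11.7 rpm with siVPS4A#1 against 92.1, 110, 95.2, 97.2 and 98.6 rpm with siCTRL#1. Both groups were tight and far apart. MAN2B2 fell by 2.67 (SE 0.13, adjusted p = 1.69e-19). Its level in the left-out library was 102 rpm, within the control range. CYSTM1, a small cysteine-rich membrane protein, fell by 2.64 (SE 0.12), from 62.6, 65, 51.1, 62.4 and 64.2 rpm to 11.2, 7.77, 7.3 and 9.78 rpm, and was at 146 rpm in the left-out library. NRGN, neurogranin, which binds calmodulin, fell by 2.64 (SE 0.19), from 13.1, 14, 9.99, 11.3 and 13.9 rpm to 0.96, 0.627, 1.55 and 1.47 rpm. NPM1, the abundant nucleolar chaperone nucleophosmin, was at 434, 492, 431 and 399 rpm against 1360, 1620, 1600, 1380 and 1580 rpm and fell by 1.78 (SE 0.12), with 1700 rpm in the left-out library.

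The ESCRT genes themselves mostly did not pass the test: 3 of 35 were higher and 5 lower, near the background of 9.57% and 12.5%, with a median of 0.08. VTA1, the VPS4 cofactor, was at 22.5, 22.2, 20.5 and 16.7 rpm with siVPS4A#1 and 60.1, 67.7, 63, 59.5 and 61.6 rpm with siCTRL#1. All knockdown libraries were below all controls, and the groups were tight. VTA1 fell by 1.56 (SE 0.11, adjusted p = 3.43e-14), and in the left-out library it was at 61.5 rpm, inside the control range. The remaining falls besides VPS4A and CEP55 were the ESCRT-I subunits VPS37B (-0.78) and VPS37C (-1.05, SE 0.15). The rises were ESCRT-III subunits, CHMP1B (0.81, SE 0.13), CHMP3 (0.65) and CHMP4C (0.63), the last known for timing the final cut between daughter cells. These members were chosen after their values were seen, apart from VPS4A, VTA1 and CEP55.

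In the compartments that ESCRT serves, 9 of 62 lysosomal genes were higher and 2 lower (median 0.04), 4 of 33 autophagy genes higher and 0 lower (median 0.25), and 1 of 39 genes of Rab GTPases and sorting nexins higher and 1 lower (median 0.01). As shares higher, 14.5% for lysosomal and 12.1% for autophagy genes are near the 9.57% of all genes, so the members named are single genes and not a result about these lists. IDUA, the enzyme that trims iduronic acid from glycosaminoglycans, was at 22.9, 13, 20.5 and 24.2 rpm against 8.08, 4.81, 2.54, 5.94 and 3.69 rpm and rose by 1.87 (SE 0.2). ATP6V0D1, a subunit of the proton pump that acidifies lysosomes, rose by 1.2 (SE 0.13), from 52.4, 54.7, 58.9, 45.9 and 52.4 rpm to 99.2, 135, 123 and 133 rpm. Its siVPS4A#1 libraries were all above the controls. LAMP3, a lysosomal membrane protein, fell by 1.87 (SE 0.19), and against siCTRL#2 it was at -0.49 and not called (adjusted p = 0.0508). The other fall in this list was ARSB, a sulfatase (-0.69), and the lysosomal enzyme MAN2B2, given above, is not a member of it. ATG4A, a protease that processes the autophagosome proteins of the ATG8 family, rose by 1.07 (SE 0.17) and ATG2B, a lipid transfer protein, by 0.84 (SE 0.2), and BECN1, of the initiating lipid kinase complex, was called at 0.59. ATG12 was at 0.76 (adjusted p = 0.00187) against siCTRL#1 but at -0.74 against untransfected cells and -1.47 against siCTRL#2, so its direction depends on the control, and without siVPS4A#1 replicate 3 it was at 0.58 and not called. The called Rab genes were RAB3A, of regulated secretion (0.88, SE 0.15, but 0.13 and not called against siCTRL#2), and RAB11FIP1, of recycling endosomes (-0.75, SE 0.14, with overlapping groups).

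Of the genes of innate immunity, interferon-stimulated ones rose in part (27.8% higher, against 9.57% of all genes) and few NF-kB ones were called. Of 34 NF-kB signalling genes and targets 0 were higher and 3 lower (8.82%, against 12.5% of all genes), with a median of -0.09. The 3 NF-kB calls are therefore values of single genes and not a result about the list. Of 36 interferon-stimulated genes 10 were higher and 1 lower (median 0.29). ISG15, a ubiquitin-like modifier, was at 320, 367, 335 and 312 rpm against 144, 90.7, 189, 130 and 96.1 rpm and rose by 1.41 (SE 0.18, adjusted p = 3.8e-08). The groups did not overlap. BST2 (1.58, SE 0.28), which tethers budding virions, and IRF9 (1.32, SE 0.24), the DNA-binding part of the interferon-activated ISGF3 complex, rose with overlapping groups, and OAS3 fell by 0.94 (SE 0.21). The NF-kB genes called lower were REL (-1.01, SE 0.17), a subunit of the factor, and its regulators TNFAIP3 (-0.95, SE 0.21) and BCL3 (-0.73, SE 0.17). TNFAIP3 and BCL3 were not called against untransfected cells (-0.32 and -0.30) or with a pseudocount of 5 (-0.45 and -0.5). The NF-kB count depended on the control: 4 were higher and 5 lower against untransfected cells, and 3 higher and 6 lower against siCTRL#2. With the left-out library in the fit 3 were higher and 1 lower. The NF-kB list median of that library alone was 1.24, where the 4 fitted siVPS4A#1 libraries were at -0.19 to -0.05.

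Endoplasmic reticulum chaperones and glycolysis genes were lower in part. Of 26 genes of the unfolded protein response 10 were lower and 0 higher (median -0.39), 38.5% lower against 12.5% of all genes: HERPUD1, of the degradation machinery, fell by 1.33 (SE 0.2), MANF, a secreted stress factor, by 1.07 (SE 0.13), and HSPA5, the main chaperone BiP, by 0.86 (SE 0.16). MANF was at 94.9, 103, 101 and 81.4 rpm against 205, 162, 262, 190 and 181 rpm, with no overlap. Of 32 genes of hypoxia and glycolysis 8 were lower (25%, against 12.5% of all genes) and 0 higher (median -0.3). SLC2A1, the glucose carrier GLUT1, was at 694, 1090, 488 and 752 rpm with siVPS4A#1 and 2050, 1360, 1900, 1910 and 2310 rpm with siCTRL#1. Replicate 4 was the lowest, and the highest knockdown library was still under the lowest control. SLC2A1 fell by 1.41 (SE 0.18, adjusted p = 2.8e-08) and PGK1, of glycolysis, by 1.26 (SE 0.14). Against untransfected cells the hypoxia and glycolysis list gave 4 lower and 3 higher.

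**Figure D2:**
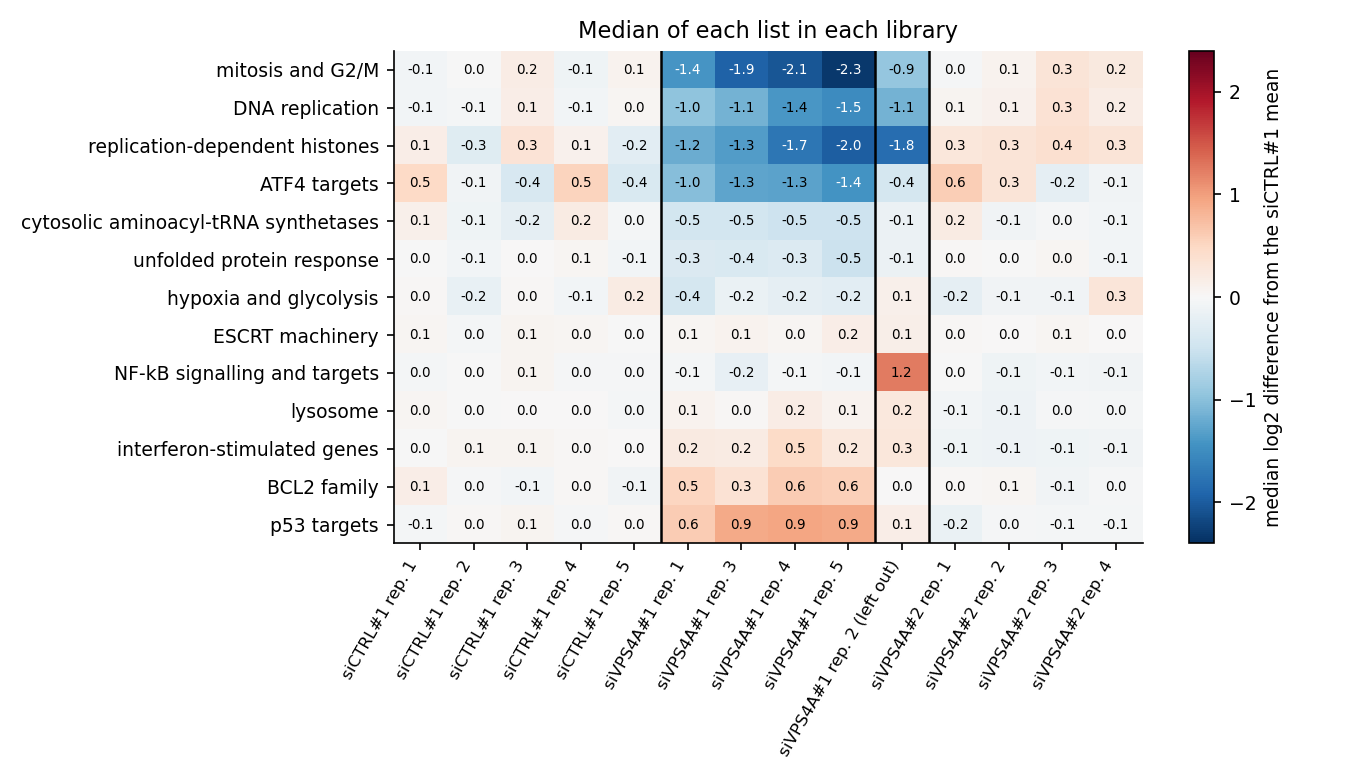
Median log2 difference from the siCTRL#1 mean over the members of 13 lists (rows) in each library of siCTRL#1, siVPS4A#1 (the left-out replicate 2 set apart) and siVPS4A#2 (columns), with blue for lower and red for higher. The 4 fitted siVPS4A#1 libraries are alike (mitosis -1.41 to -2.31), the left-out one has an NF-kB median of 1.24, and the siVPS4A#2 libraries lie near the controls (mitosis -0.02 to 0.31).

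These changes were tested against the other VPS4A duplex. With siVPS4A#2, 5 genes were higher (0.0396%) and 6 lower (0.0475%) than with siCTRL#1 by the same limma test, although 808 genes had an unadjusted p under 0.05, and over the genes called for siVPS4A#1 its median log2 fold change was 0.03 (genes higher) and -0.01 (genes lower). Both comparisons share the siCTRL#1 libraries, so the test of the difference is the direct contrast. It called 1253 genes higher (9.92%) and 1554 lower (12.3%) with siVPS4A#1 than with siVPS4A#2. Of the genes higher against siCTRL#1, 922 were also higher in the direct contrast (76.3% of the former, 73.6% of the latter). Of those lower, 1330 were also lower (84.5% and 85.6%), and 0 were called the opposite way in either direction. The remaining 286 and 244 genes were not called in the direct contrast, which does not show that the duplexes act alike on them. The direct contrast reuses the siVPS4A#1 libraries, so these shares are not independent of the first calls.

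The lists showed the same difference. In the direct contrast 45 of the 45 called mitotic genes, 41 of the 41 called replication genes, 35 of the 35 called histones, 26 of the 27 called ATF4 targets and 22 of the 22 called p53 targets were also called, the list medians being -2.05, -1.45, -1.81, -1.37 and 0.93. The medians for siVPS4A#2 against siCTRL#1 were 0.14, 0.16, 0.22, 0.07 and -0.08, with 0 members called in these lists. CDKN1A was at 466, 471, 495 and 645 rpm with siVPS4A#2, with 3 of 4 libraries under the lowest control and all far below siVPS4A#1, and the duplexes differed by 2.38 (SE 0.16, adjusted p = 6.12e-15). ASNS was at 342, 267, 172 and 212 rpm with siVPS4A#2, all within the control range, and differed by -3.45 (SE 0.27). MAN2B2 was at 74.1, 97.8, 97 and 66.1 rpm (difference -2.38, SE 0.14), and VTA1 at 63, 60.7, 66 and 58.8 rpm (difference -1.52, SE 0.12).

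Besides VPS4A, 3 genes named by rule changed the same way with both duplexes. PPP1R16A, a regulatory subunit of protein phosphatase 1, was at 94.4, 112, 84.4 and 112 rpm with siVPS4A#1, 58.9, 75.4, 59.5 and 77.4 rpm with siVPS4A#2 and 34.2, 55.1, 34.5, 30.3 and 55.4 rpm with siCTRL#1. Its log2 fold changes were 1.30 (SE 0.14) and 0.79 (SE 0.14, adjusted p = 0.00403), and the direct difference of 0.51 was under the fold threshold. GLCE, an epimerase of heparan sulfate synthesis, was at -0.94 (SE 0.14) and -0.68 (SE 0.15, adjusted p = 0.0438). NAF1, an assembly factor of small nucleolar ribonucleoproteins, was at 0.81 (SE 0.19) and 0.97 (SE 0.2, adjusted p = 0.0202), from widely spread controls of 6.74, 16.8, 8.98, 7.82 and 23.4 rpm. Its sign turned against untransfected cells (-0.66) and siCTRL#2 (-0.49). Against untransfected cells PPP1R16A was at 0.39 and GLCE at -0.37, and neither was called. The other genes called for siVPS4A#2, listed after their values were seen, were TDRKH, MTFP1 and ZRANB3 (higher) and USP47, THBS1, PROS1 and ZC3HAV1L (lower), and of these ZC3HAV1L was called the other way with siVPS4A#1 (0.65 against -1.09).

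Independent libraries holding the same duplex were also available. Cells of siVPS4A+B#2 received siVPS4A#1 with siVPS4B#2, and comparing them with siVPS4B#2 alone varies the same VPS4A duplex where VPS4B is also depleted, with no library shared with the comparison above. That contrast called 1494 genes higher (11.8%) and 1752 lower (13.9%). Of the genes called higher with siVPS4A#1, 447 were higher there too (37% of them and 29.9% of the other list) and 49 lower. Of those called lower, 815 were lower there too (51.8% and 46.5%) and 39 higher. The corresponding contrast for the other duplex, siVPS4A+B#1 against siVPS4B#1, called 612 higher (4.85%) and 636 lower (5.04%). It shared 85 of the genes higher (7.04% and 13.9%) with 111 opposite, and 103 of those lower (6.54% and 16.2%) with 87 opposite. VPS4A was at 10.7 to 33.9 rpm in the siVPS4A+B#1 libraries and at 3.07 to 7.75 rpm in those of siVPS4A+B#2. These groups thus differed in residual VPS4A as well as in their duplexes. The part of each in the overlaps cannot be told apart and was not tested.

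The cell cycle lists had negative medians in the independent libraries too, and the ATF4 list did not. Mitotic genes were lower for 40 of 46 (median -1.03), histones for 29 of 39 (-0.92) and replication genes for 24 of 44 (-0.61), with 1 replication gene higher. ATF4 targets were higher for 7 and lower for 5 of 36 (median 0.21), p53 targets higher for 13 and lower for 4 of 37 (0.28), and NF-kB genes higher for 25 of 34 (1.03). Of the 12 largest rises 6 were called higher there and 1 lower, where 11.8% of all genes were called higher and 13.9% lower. Of the 12 largest falls 7 were called lower there and 0 higher, and the 7 include VPS4A, which the same duplex targets. The rises not called there were PROM2 (0.39), ANK1 (0.20), TP53I3 (-0.06), GNG13 (-0.28) and CEACAM1 (-0.37). Values of some single genes are set side by side here, and they do not stand for the rest. MAN2B2 was at -2.73 there and -2.67 here, HMGA2 at 2.20 and 2.22, SERPINB5 at 2.04 and 1.99, VTA1 at -1.75 and -1.56, ARHGEF39 at -2.30 and -2.72, and NPM1 at -1.54 and -1.78. CDKN1A was at 0.83 there and 1.95 here. ASNS was at 0.46 there (adjusted p = 0.155) and -3.17 here, and SPARC fell by 1.52 there while it rose by 2.05 here. Whether any of these values differ between the comparisons was not tested.

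**Figure D3:**
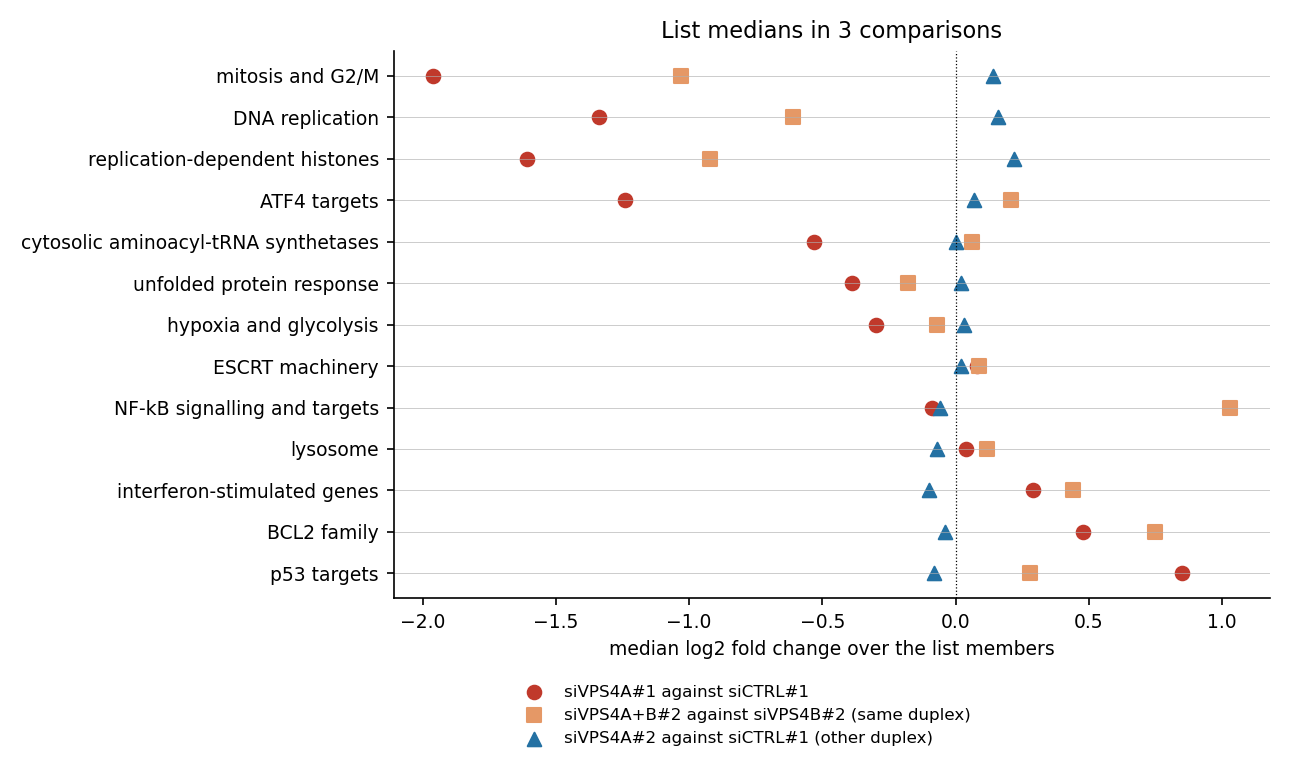
Median log2 fold change over the members of 13 lists (horizontal axis) in siVPS4A#1 against siCTRL#1 (circles), siVPS4A+B#2 against siVPS4B#2, which varies the same duplex in other libraries (squares), and siVPS4A#2 against siCTRL#1, which shares the controls (triangles). Mitotic genes are at -1.96, -1.03 and 0.14, ATF4 targets at -1.24, 0.21 and 0.07, and NF-kB genes at -0.09, 1.03 and -0.06.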

How the data were processed

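HCT116 RNA was converted to libraries with a human AmpliSeq panel, which holds an amplicon for each gene, and sequenced on the Ion Proton. Reads were aligned by the authors to an hg19 amplicon reference with the Torrent Mapping Alignment Program, and the submitters' processing notes name HTSeq 0.6.0 and DESeq2 1.18.1. The deposited signal values are each gene's share of its library's reads, for 12627 RefSeq identifiers in 38 libraries. The smallest steps of the values gave whole reads: of the 49% of values printed finely enough, 100% came out whole within 0.25 read. A panel counts short amplicons, so levels are not per length and were not compared between genes.

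Reads were scaled by TMM (edgeR 4.0.16, R 4.3.3) to reads per 1000000, and log2(value + 1) was fitted with limma 3.58.1 with an intensity trend over 37 libraries (9 conditions, with the replicate number as a block), adjusted by Benjamini-Hochberg over all 12627 genes. A fold change on this scale understates the change of low genes. The values were normalized, so count tests (edgeR quasi-likelihood, DESeq2 1.42.0) were run as alternatives on the recovered reads. The other alternatives were other scalings, pseudocounts of 0.1 and 5, a filter on low values, fits without the block, with the 9 libraries alone, with the left-out library or without each library in turn, other controls, limma's treat test and a 2-fold threshold. Per the labels each replicate number is a batch (a to e), which gives the pairing. Deviations from group means correlated at 0.185 on average between libraries of the same number (137 pairs) and -0.0537 between different numbers (471 pairs), although siVPS4A#1 and siCTRL#1 replicate 4 correlated at -0.361. Batch e held only replicate 5 of these groups. The study calls its replicates biological, and p-values measure the spread between these libraries. Depth was 5801458 to 10029811 reads in the 9 libraries, the floor was 3 reads, and floors cover counting error only.

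Of the identifiers, 12474 were matched to symbols and 12453 to GRCh37 positions. The members and lists were chosen with earlier results of these data known. Genes were named by rule: VPS4A and VPS4B, the 12 largest rises and falls with non-overlapping groups and a mean of at least 5 reads per 1000000, up to 3 called members of each list, the 6 genes in each direction that differed most from siVPS4A#2, and genes changed alike by both duplexes. Further list members in the text, such as CDK1, PLK1, MKI67, MCM2, MCM5, PCNA, CCNE1, PSAT1, SHMT2, SLC7A5, ATF4, DDIT3, MDM2, SESN1, ZMAT3, BAX, BMF, MCL1, OAS3, HSPA5 and the members not called, were chosen after their values were seen. A few genes, among them 1 that met the rule, are not reported here. Promoters were matched by symbol (10206 genes, the first entry of each). Figures were drawn with Python 3.11.15 and matplotlib 3.10.9.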

Additional observations from a re-analysis of the deposited data

Results flagged for a closer look

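Of 200 sets of 1 gene in 1 group that were examined, 11 held a library set apart from the rest by Dixon's criterion, a number near the 1 in 20 that chance gives. VPS4A was at 3.52 reads per 1000000 in siVPS4A#1 replicate 1 and at 1.63 to 1.88 in the others. The other values set apart in siVPS4A#1 were ACAT2 in replicate 4 (12.5, others 8.74 to 9.29), ATG4A in replicate 3 (9.4, others 12.4 to 12.6), AREG in replicate 3 (103, others 191 to 206), DUSP4 in replicate 5 (404, others 345 to 347) and LYZ in replicate 3 (0.125, others 0.774 to 0.855). In siCTRL#1, replicate 3 stood apart for KRTAP3-1 (0.847, others 0.168 to 0.29), PROM2 (4.06, others 8.04 to 10.4), CYSTM1 (51.1, others 62.4 to 65) and H2AC14 (401, others 266 to 284), and replicate 5 for ITGB8 (8.14, others 10.6 to 11.2).

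The duplexes against VPS4A differed in the direct contrast for 922 of the genes called higher and 1330 of those called lower with siVPS4A#1. The left-out library, replicate 2 of siVPS4A#1, was above every siCTRL#1 library for 5 of the 12 largest rises and below every one for 8 of the 12 largest falls. Those falls include VPS4A, the targeted transcript. This shallow library had 1827 genes at 0 reads, and its shares over all genes above or below every siCTRL#1 library were not computed. The left-out library lay on the called side of the siCTRL#1 mean for 54.5% of the genes called higher and 73.1% of those called lower. The fitted libraries ranged from 99.5% to 100%, but the calls were made from them, so that range is no separate yardstick. Over all genes the median log2 difference of the left-out library from the siCTRL#1 mean was -0.16. The share of all genes on each side was not computed.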

How the results depend on the processing

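The count of 1208 genes higher moved by over 1.5 times with a pseudocount of 5 and with siCTRL#2 as control. Both that count and the 1574 lower moved as far with limma's treat test and at a fold of at least 2. Under the remaining settings neither of these counts moved as far. With a pseudocount of 5, 705 genes were higher, 551 of them also in the contrast with siVPS4A#2 and 268 in siVPS4A+B#2 against siVPS4B#2, and 515 genes were lower in the first and the last. With limma's treat test the higher counts were 218, 159 and 46 and the lower counts 569, 470 and 182, and at a fold of at least 2 they were 284, 214 and 72 and 671, 570 and 264; these settings ask for larger changes by construction. With siCTRL#2 as control 1928 genes were higher and 1843 lower, and only 754 and 1070 of them were shared with the reported calls. With untransfected cells as control 1460 were higher and 1696 lower, and only 723 and 1117 were shared. Against siCTRL#2 VPS4B reversed to -0.34 (adjusted p = 0.191, limma). Including the left-out library gave 926 higher (761 of them shared with the reported calls) and 1503 lower (1257 shared), VPS4B at -0.34 (adjusted p = 0.473) and KDR at 0.2, both reversed. Against untransfected cells INSIG1 (0.06), ATG12 (-0.74), KDR (0.14) and NAF1 (-0.66) reversed, and against siCTRL#2 FADS1 (0.15), ATG12 (-1.47), NOTUM (0.24), KRT19 (0) and NAF1 (-0.49); the cause was not tested. Without the replicate block 1162 genes were higher and 1560 lower, 1128 and 1520 of them shared with the reported calls. Leaving out 1 library at a time gave 1184 to 1363 higher and 1457 to 1614 lower. The edgeR test called 1381 and 1734, DESeq2 1416 and 1669, and scaling by total reads 1387 and 1458, which moved the share lower from 56.6% to 51.2% of calls. VPS4A remained lower under every setting run. Over 98 named genes, 2085 values stayed on their side of the threshold, 59 lost the call and 10 reversed. Low depth limits the left-out library most, and genes under 1 read per 1000000 were rarely called.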

Other observations

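The remaining lists are to be read against the 9.57% of all genes called higher and the 12.5% called lower. Shares lower were 30.8% for AP-1 and immediate-early genes, 24% for Wnt targets, 16% for NRF2 targets, 15.4% for RNA interference genes, 13.3% for cholesterol genes, 12.9% for the EGFR list, 11.4% for adhesion genes, 4.88% for ribosome biogenesis, 8.33% for colon differentiation and 4.55% for fatty acid synthesis. Shares higher were at most 16% (NRF2 targets). Where a share is near that of all genes, the values are of single genes and not a result about the list. Of 26 AP-1 and immediate-early genes 8 were lower and 1 higher with siVPS4A#1 (median log2 fold change -0.14). FOS fell by 1.56 (SE 0.34) with overlapping groups, NR4A1 by 1.53 (SE 0.17) and CCN2, a secreted target of YAP, by 1.53 (SE 0.18). NR4A1 and CCN2 were not called against untransfected cells (-0.45 and -0.28). KLF2 (1.03), the member called higher, was chosen after its value was seen. Of 25 Wnt and beta-catenin targets and regulators 6 were lower and 2 higher (median -0.15): AXIN2, a feedback inhibitor, fell by 1.05 (SE 0.13), PROM1 by 1.17 (SE 0.14) and NOTUM, a secreted inhibitor, by 1.61 (SE 0.28, but 0.24 and not called against siCTRL#2), while CD44 (0.74) and APC (0.76) rose. Of 31 genes of the EGFR family, its ligands and MAPK feedback 4 were lower and 2 higher (median -0.03), with AREG, an EGFR ligand, at -1.22 (SE 0.19), DUSP4, a MAP kinase phosphatase, at 1.10 (SE 0.14) and SPRED3 at 1.07 (SE 0.18). Against siCTRL#2 DUSP4 was at 0.22 and AREG at -0.57, and neither was called.

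Of 44 cell adhesion and junction genes 7 were higher and 5 lower (median 0.07). COL17A1 (1.91, SE 0.23), a hemidesmosome collagen, and its partner integrin ITGB4 (1.41, SE 0.16) rose with ITGB8 (1.49, SE 0.19), and FN1 fell by 1.23 (SE 0.18). ITGB8 was at 0.75 and not called with the left-out library included. Of 25 NRF2 targets 4 were higher and 4 lower (median 0), among them ABCC2 (1.21, SE 0.16) and HMOX1 (0.90, SE 0.16), with SLC7A11 already given among ATF4 targets. HMOX1 was at 0.45 and not called against siCTRL#2. In siVPS4A+B#2 against siVPS4B#2, HMOX1 rose by 5.65 on the log2 scale.

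Of 30 genes of cholesterol synthesis and uptake 4 were lower and 1 higher (median -0.32), with ACAT2 at -1.37 (SE 0.16), DHCR7 at -1.17 (SE 0.18) and INSIG1 at -1.04 (SE 0.32). INSIG1 lost its call without siCTRL#1 replicate 5 (-0.81) or siVPS4A#1 replicate 5 (-0.79), and it was at 0.06 against untransfected cells. Of 22 genes of fatty acid synthesis and desaturation 2 were higher (ACSL5, 1.08, and FADS3, 0.90) and 1 lower (FADS1, -0.83, but 0.15 against siCTRL#2). Of 41 ribosome biogenesis genes 3 were higher and 2 lower (median 0.16), with RRP1B at -1.57 (SE 0.15) beside NPM1, and RRS1 at 1.23 (SE 0.14). Of 12 colon differentiation genes 1 was higher (CEACAM1) and 1 lower (GATA6, -0.63). Of 13 RNA interference genes 1 was higher (TNRC6A, 0.74) and 2 lower (PRKRA, -0.61, and AGO4, -0.60). PRKRA, AGO4 and RRS1 were not called against untransfected cells (-0.22, -0.28 and 0.28). The calls near the threshold also rested on single libraries: GATA6 was not called without siCTRL#1 replicate 2 (-0.55) or siVPS4A#1 replicate 3 (-0.49), and TNRC6A without siVPS4A#1 replicate 4 (0.56). PRKRA lost its call without siCTRL#1 replicates 4 (-0.5) or 5 (-0.59) or siVPS4A#1 replicates 4 (-0.45) or 5 (-0.57), and AGO4 without the same libraries (-0.49 to -0.56) or siCTRL#1 replicate 2 (-0.58).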
